A study of Mus musculus with 6 samples.

Results

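The genes described here are 10 secreted signalling proteins that fibroblasts are known to release: the CC chemokines Ccl7 and Ccl2, the CXC chemokines Cxcl1, Cxcl5 and Cxcl12, the cytokines Il6, Lif and Csf1, and the TGF-beta family members Tgfb1 and Gdf15. They were found by symbol among the 32285 genes of the count table, and each of the 10 matched exactly 1 gene. The set was selected on the counts of Ccl7, which had been seen to be lower in the Space libraries. Its difference between the groups is therefore a description with no test, and the other 9 genes were also chosen with results of these data known.

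The libraries came from GS cells, cultured mouse spermatogonia with stem cell activity, which were grown on mouse embryonic fibroblasts (MEFs) as a feeder layer. All 6 libraries share the strain and genotype: DBA/2 with the ubiquitous EGFP transgene Tg14(act-EGFP-OsbY01), from testes of mice aged 2 to 3 days. Cells were stored frozen for 6 months, aboard the International Space Station (ISS) for the 3 libraries titled Space and on Earth for the 3 titled Ground. They were thawed on Earth, and the study took cells for RNA-seq the day after thawing, before any passage. It asked whether the storage place altered expression. Its text does not state whether feeder cells were stored with the GS cells or added after thawing. In each of the 6 libraries the treatment label contradicts the title. Groups follow the titles, as the column names do, and every sign below would turn if the treatment label were right. Each group is described as 3 biological replicates, and the paper writes of 3 lines of cells. No label says which line or culture a library came from, or how many feeder cells it held. The p-values therefore measure the spread between these libraries only. Lines shared between the groups, if any, could not be paired from the labels. As bulk RNA mixes germ cells with feeder cells, fewer cells of a type and less RNA per cell cannot be told apart.

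Chemokines are small secreted proteins that guide migrating cells through G protein-coupled receptors. CC chemokines such as Ccl2 draw monocytes, Cxcl1 and Cxcl5 draw neutrophils, and Cxcl12 holds stem cells in their niches, including germ cells through Cxcr4. Il6 and Lif signal through the shared receptor chain Il6st and the JAK-STAT pathway, Csf1 sustains macrophages, Tgfb1 controls matrix synthesis through Smad proteins, and Gdf15 is induced by cellular stress. In fibroblasts many of these genes are switched on by NF-kB.

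Totals ranged from 19015985 to 24110916 counts per library. At these depths 3 counts, taken here as the floor of detection, correspond to between 0.120 and 0.160 CPM (counts relative to library size, here scaled by edgeR's TMM factors). Mitochondrial transcripts took between 2.51% and 11.5% of the counts. The 12 spermatogonia markers were all measured, with a summed level of 3049 to 3160 CPM in Ground and 3036 to 3167 CPM in Space. The 24 fibroblast markers were also all present, so the label of the gene set could be checked against a fibroblast signal in each library. None of these markers was at 0 in the table, though 1 of them had under 3 counts in Space-2. Of 12 macrophage markers only 3 passed the filter on low counts, and C1qa and C1qb were at 0 in every library. Their summed level was 14.9 to 24.3 CPM in Ground and 18.6 to 24.1 CPM in Space. Most of this sum was Cd68, with means of 17.4 CPM in Ground and 18.7 CPM in Space, so the sum leans on 1 gene. Of the markers of other testis cells, 6 of 9 endothelial, 6 of 8 Sertoli cell and 1 of 6 Leydig cell markers were tested, and 0 passed the adjusted p.

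Because NF-kB is a known activator of chemokine genes, promoter windows were searched for its binding letters. RefSeq windows of the GRCm38.p6 assembly, from 250 bases before to 50 after the start, were at hand for 7 of the 10 genes: Cxcl1, Cxcl12, Il6, Lif, Csf1, Tgfb1 and Gdf15. On either strand, 3 of the 7 genes held an NF-kB match, against 4.51% of 32841 windows of all genes. Gdf15 had more than 1 window, none with a match. As the set was made of genes of a kind known to respond to NF-kB, this share is a description and not a result. The windows of these 3 genes are shown from base -200 to base -11 relative to the start, with the NF-kB match in capitals.
Cxcl1, chr5:90891045-90891234, plus strand: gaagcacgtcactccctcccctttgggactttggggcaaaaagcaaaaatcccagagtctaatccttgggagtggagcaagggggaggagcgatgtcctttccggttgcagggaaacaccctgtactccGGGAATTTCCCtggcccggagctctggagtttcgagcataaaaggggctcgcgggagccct
Csf1, chr3:107760480-107760669, minus strand: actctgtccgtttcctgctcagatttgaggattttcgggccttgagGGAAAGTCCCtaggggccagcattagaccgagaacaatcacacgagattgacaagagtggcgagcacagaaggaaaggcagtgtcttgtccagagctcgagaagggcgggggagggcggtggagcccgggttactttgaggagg
Il6, chr5:30012914-30013103, plus strand: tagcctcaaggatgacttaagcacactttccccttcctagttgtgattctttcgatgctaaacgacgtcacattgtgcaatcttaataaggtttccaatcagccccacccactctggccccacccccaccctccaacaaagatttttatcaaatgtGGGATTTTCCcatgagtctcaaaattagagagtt
In Cxcl1 the capitals are a pair of overlapping matches, 1 on each strand, beginning 71 and 70 bases before the start. In Csf1 the match began 154 and in Il6 44 bases before it. The AP-1 letters TGANTCA, held by 7.81% of all windows, were in the windows of Il6 and Lif, and TATAAA, held by 13.6%, was in none of the 7 genes. A match is a description of letters and says nothing on whether the factor was bound.

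The levels of the 10 genes spanned a wide range. To compare genes, CPM were divided by the exon length in GENCODE M21. On this scale of CPM per kb, Tgfb1 had the highest mean level over the 6 libraries, 8.09 ± 3.51 CPM per kb (SD, n = 6). Ccl2 followed with 3.51 ± 1.54 CPM per kb, Ccl7 with 3.09 ± 1.35 and Csf1 with 1.70 ± 0.530. Cxcl1, Cxcl12, Cxcl5, Lif and Gdf15 had mean levels between 0.237 and 0.621 CPM per kb. Il6 was last with 0.0156 CPM per kb, and its 5 counts in all 6 libraries were at most 2 in any of them, below the floor of 3 counts. The range of the 6 libraries overlapped between each gene and the next in this order except between Gdf15 and Il6. The 3 genes with an NF-kB match in the printed windows, Csf1, Cxcl1 and Il6, stood at positions 4, 5 and 10 of this order. Ccl2, Ccl7 and Cxcl5, at positions 2, 3 and 7, had no window and were not searched.

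**Figure D1:**
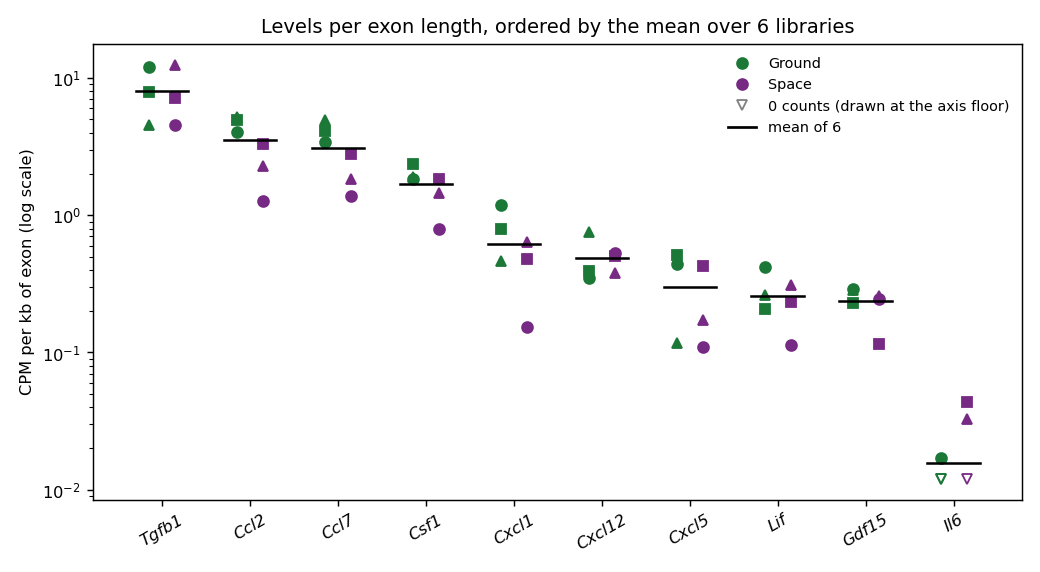
Level of each gene per exon length (y axis, CPM per kb, log scale) in the 6 libraries, with genes ordered along the x axis by their mean (black line); circles, squares and triangles are libraries 1, 2 and 3 of each group. Tgfb1 is highest at a mean of 8.09 CPM per kb and Il6 lowest at 0.0156, and open triangles mark libraries with 0 counts of Il6.

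Ccl7, chosen for its fall in Space, and Ccl2 are both monocyte-attracting CC chemokines. Each was lower in every Space library than in any Ground library, as were 1.98% of all genes tested. Ccl7 (ENSMUSG00000035373, chr11:82045712-82047525, plus strand, mm10) encodes monocyte chemoattractant protein 3. Its level was 2.76, 3.30 and 3.95 CPM in Ground-1, Ground-2 and Ground-3, and 1.11, 2.24 and 1.48 CPM in Space-1, Space-2 and Space-3. All 3 Space libraries lay below all 3 Ground libraries, with Space-1 lowest. The counts behind these levels were 219 in Ground and 106 in Space, and the log2 fold change was -1.06 with a standard error (SE) of 0.30, which restates the observation that chose the gene.

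Ccl2 (ENSMUSG00000035385, chr11:82035571-82037453, plus strand) encodes monocyte chemoattractant protein 1, a ligand of Ccr2. Its level was 4.57, 5.64 and 5.96 CPM in the Ground libraries 1 to 3 and 1.44, 3.78 and 2.60 CPM in the Space libraries 1 to 3. Again the groups did not overlap and Space-1 was lowest. The log2 fold change was -1.06 (SE 0.33), from 353 counts in Ground and 171 in Space. In edgeR's quasi-likelihood test the unadjusted p was 0.0129 and the p with Benjamini-Hochberg adjustment over all genes was 0.9999. The difference did not pass the threshold of 0.05. Ccl2 is overlapped by the gene Gm17268 on the opposite strand, which had 0 counts in every library, and the strand setting of the counting was not stated.

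Ccl2 and Ccl7 are neighbours, 8258 bases apart. The ratio of Ccl2 to Ccl7 counts was 1.66, 1.71 and 1.51 in Ground and 1.30, 1.69 and 1.76 in Space. It overlapped between the groups, while each gene alone did not. The same cluster on chromosome 11 holds Ccl11, Ccl12 and Ccl8, close relatives whose reads could be shared with these genes. Ccl8 (chr11:82115185-82116799), which encodes monocyte chemoattractant protein 2 and was the other chemokine ligand with the smallest unadjusted p, had 28, 24 and 46 counts in Ground and 11, 21 and 15 in Space. Its groups did not overlap either, and its log2 fold change was -1.06 (SE 0.41, edgeR unadjusted p = 0.0345, adjusted p = 0.9999). The remaining cluster genes were looked at after the values were seen. Ccl11, the eosinophil chemoattractant eotaxin, had 24, 39 and 32 counts in Ground and 7, 34 and 31 in Space, so that only Space-1 stood apart, and Ccl12 had 0 counts in all 6 libraries.

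The neutrophil attractants were scarcer and more variable. Cxcl1 (chr5:90891241-90893115, plus strand) was at 2.22, 1.49 and 0.877 CPM in Ground and 0.288, 0.906 and 1.20 CPM in Space. Ground-1 was highest and Space-1 lowest, a 7.71-fold span, and the groups overlapped. The log2 fold change was -0.94 (SE 0.54, unadjusted p = 0.118 in edgeR). It was -0.53 without Space-1, -0.56 without Ground-1 and -1.40 without Space-3. Cxcl5 (chr5:90759360-90761624, plus strand) was at 0.823, 0.958 and 0.219 CPM in Ground and 0.206, 0.799 and 0.320 CPM in Space. Its groups overlapped as well, with Ground-3 as low as Space-1, and the log2 fold change was -0.63 (SE 0.66, unadjusted p = 0.370 in edgeR). Leaving out 1 library moved it between -1.31, without Space-2, and -0.28, without Space-1.

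Cxcl12 (chr6:117168535-117181367, plus strand), the ligand of Cxcr4, followed another order. Its level was 2.84, 3.19 and 6.14 CPM in Ground and 4.32, 4.16 and 3.12 CPM in Space. Ground-3 was highest, the Space libraries lay inside the range of Ground, and the log2 fold change was -0.07 (SE 0.32, unadjusted p = 0.824 in edgeR). Without Ground-3 its sign turned, to 0.36, and without Space-3 it was 0.06.

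**Figure D2:**
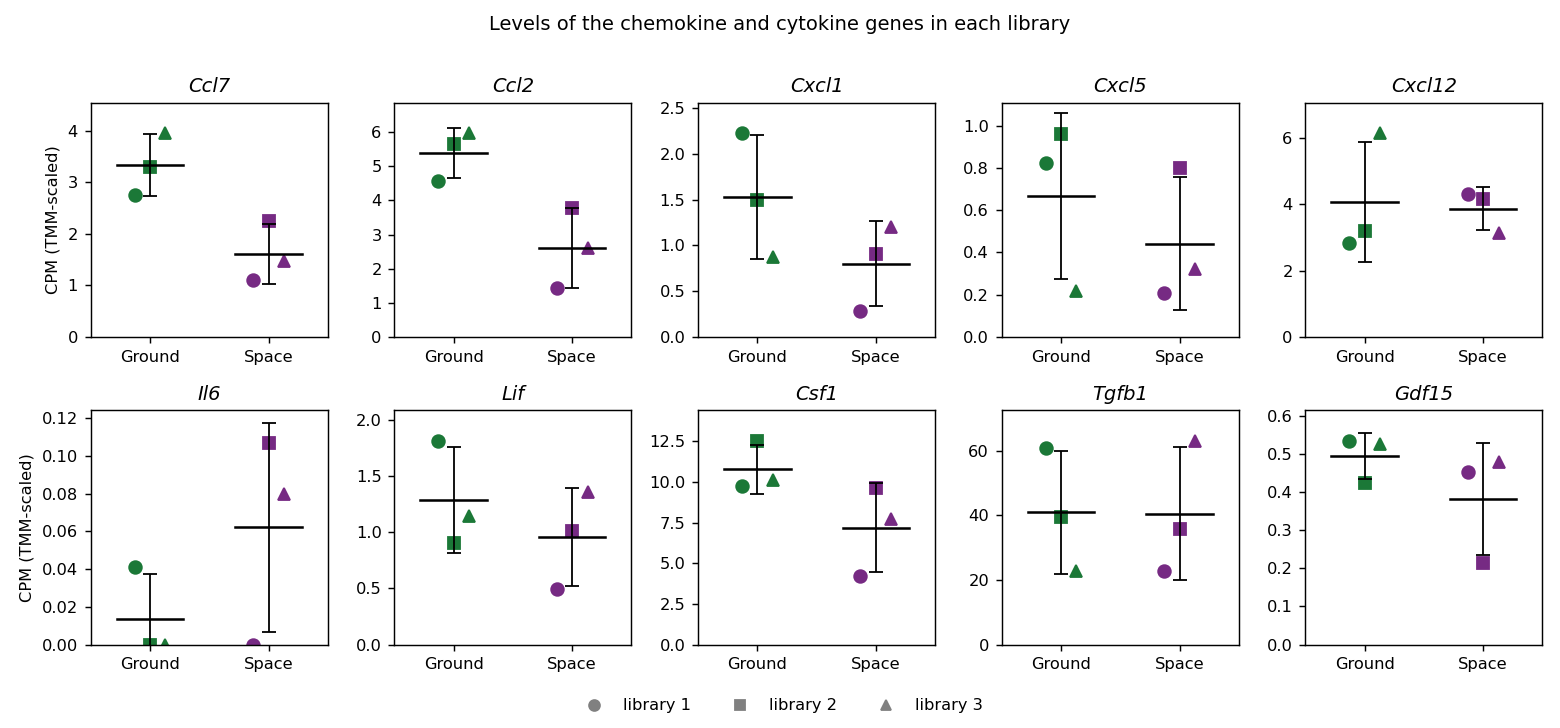
TMM-scaled CPM (y axis, from 0 in each panel, with its own scale) of the 10 genes in the Ground (green) and Space (purple) libraries; circles, squares and triangles are libraries 1, 2 and 3, the black line is the mean and the bar 1 SD (n = 3). Ccl2 and Csf1 show no overlap between groups, nor does Ccl7, which was chosen for its fall in Space. All Space libraries lay below all Ground libraries for 1.98% of all genes tested. Tgfb1 spans 22.8 to 60.7 CPM in Ground and 22.8 to 63.0 CPM in Space.

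Among the cytokines, Csf1 (chr3:107741048-107760469, minus strand), the growth factor of macrophages, was also lower in every Space library than in any Ground library. It was at 9.72, 12.5 and 10.1 CPM in Ground and 4.20, 9.64 and 7.72 CPM in Space. The margin was small, with Space-2 just under Ground-1, and Space-1 was again lowest. The log2 fold change was -0.59 (SE 0.28), from 701 counts in Ground and 476 in Space, with an unadjusted p of 0.0732 and an adjusted p of 0.9999 in edgeR. Without Space-1 the difference was -0.31.

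Lif (chr11:4257557-4272514, plus strand), which supports stem cell self-renewal, was at 1.81, 0.905 and 1.14 CPM in Ground and 0.494, 1.01 and 1.36 CPM in Space. The groups overlapped and Space-1 was once more lowest, with a log2 fold change of -0.44 (SE 0.44, unadjusted p = 0.346 in edgeR). It was -0.10 without Ground-1, -0.12 without Space-1 and -0.80 without Space-3. Il6 (chr5:30013114-30019981, plus strand), an inflammatory cytokine, had 1, 0 and 0 counts in Ground and 0, 2 and 2 in Space. It was not detectable above the floor at this depth and was not tested.

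Tgfb1 (chr7:25687002-25705077, plus strand), the main regulator of matrix production, varied widely within both groups. It was at 60.7, 39.6 and 22.8 CPM in Ground and 22.8, 35.9 and 63.0 CPM in Space. Ground-1 and Space-3 were highest, and Ground-3 and Space-1 lowest. The log2 fold change was -0.02 (SE 0.42, unadjusted p = 0.972 in edgeR), and its sign turned to 0.02 when libraries were scaled by total counts, to 0.39 without Ground-1, 0.27 without Space-1 and 0.06 without Space-2. Ground-1 and Space-3 were also the highest pair for 3021 of the 15104 genes tested, and for Lif as well as Tgfb1 among these genes. Cxcl12 was highest in Ground-3 and Space-1, as were 3546 of the genes tested.

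Gdf15 (chr8:70629393-70632456, minus strand), a stress-induced cytokine, had 13, 8 and 12 counts in Ground and 11, 4 and 12 in Space. The libraries overlapped, and Space-2 was lowest. The log2 fold change was -0.35 (SE 0.41, unadjusted p = 0.418 in edgeR). Without Space-2 it was -0.09, and without Space-3 -0.54.

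Of the 10 genes, 9 passed the filter on low counts. Leaving Ccl7 aside, 0 of the other 8 passed an adjusted p of 0.05 in edgeR's quasi-likelihood test, as did 0% of all 15104 genes tested. At an unadjusted p under 0.05 there was 1 of the 8, Ccl2, against 0.609% of all genes, or 92 genes, and 0.450% that were lower in Space. DESeq2 and limma-voom also called 0 genes, with 45 and 88 genes at an unadjusted p under 0.05. In 2 of the 8, Ccl2 and Csf1, all Space libraries lay below all Ground libraries, which held for 1.98% of all genes. In 0 of the 8 did all Space libraries lie above, as they did for 1.61% of all genes. All 8 log2 fold changes were below 0, against 51.3% of all genes, with a median of -0.51 against -0.0020. These genes were picked with such values in view, and 5 of the 8 shared the same lowest library, Space-1, against 20.4% of all genes.

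The fibroblast markers also tended to be lower in Space. Their summed level was 1205.5, 1212.7 and 1194.2 CPM in Ground and 935.4, 1226.2 and 1089.5 CPM in Space. Space-1 was the lowest library and Space-2 the highest, so the sums overlapped. Of 23 tested markers, 22 had a log2 fold change below 0, against 51.3% of all genes, with a median of -0.29. In edgeR 0 of them passed the adjusted p and 4 had an unadjusted p under 0.05, against 0.609% of all genes. Against 20.4% of all genes, 20 of the markers had their lowest level in Space-1. The 3 with the highest CPM, Fn1 (fibronectin), Col5a1 and Col1a1 (collagen chains), took 68.7% to 78.7% of the sum, and their log2 fold changes were -0.09, 0.02 and -0.14. The median of the 12 spermatogonia markers was -0.0066, with Dazl, Ddx4 and Zbtb16 as the highest in CPM.

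**Figure D3:**
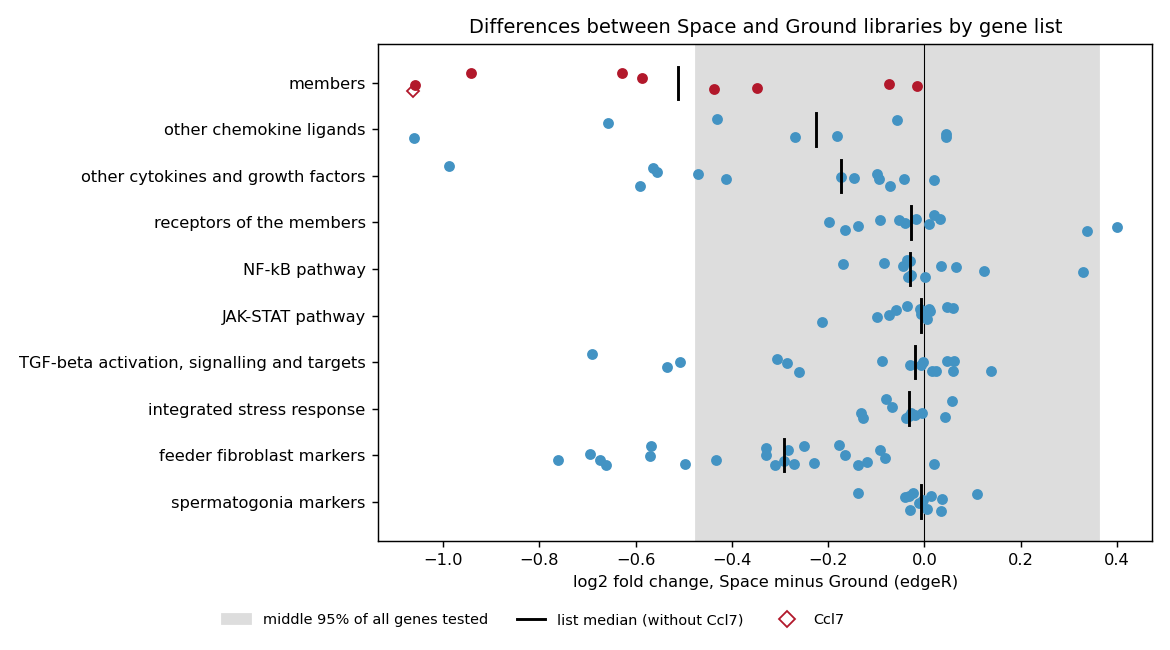
Log2 fold change between Space and Ground (x axis, edgeR, Space minus Ground) of each tested gene in 10 lists (y axis, with vertical scatter added for legibility); black bars are list medians without Ccl7, and grey marks the middle 95% of all genes tested. The chemokine and cytokine genes have a median of -0.51, the fibroblast markers -0.29 and the spermatogonia markers -0.0066.

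Relative to the summed fibroblast markers, Ccl2 amounted to 0.379%, 0.465% and 0.499% of the sum in Ground and 0.154%, 0.309% and 0.239% in Space. On this ratio too the groups did not overlap, with a log2 difference of -0.99. The share of 1.98% of all genes given above is for CPM, and no such share is given for this ratio. For Ccl7 this difference was -0.93 and again without overlap, as a description. For Csf1, at 0.806%, 1.03% and 0.844% of the sum in Ground and 0.449%, 0.787% and 0.708% in Space, it was -0.50 and the groups did not overlap. A 2-sided exact permutation test over libraries gave p = 0.1 for both Ccl2 and Csf1, the smallest p that 3 against 3 libraries allow, and 0.25 after Benjamini-Hochberg adjustment over the 5 genes tested. Lif differed by -0.33, Cxcl12 by 0.16 and Tgfb1 by 0.13 on this log2 scale, with exact p between 0.5 and 0.8.

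As the sum leans on 3 genes, the mean log2 CPM of the markers was used as another reference. The difference then was -0.74 for Ccl2, -0.68 for Ccl7 and -0.25 for Csf1, and the exact permutation p of Csf1 was then 0.3. Without Space-1 the difference from the marker sum was -0.71 for Ccl2 and -0.25 for Csf1. Whether the number of feeder cells in each library had a part in these differences was not tested.

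**Figure D4:**
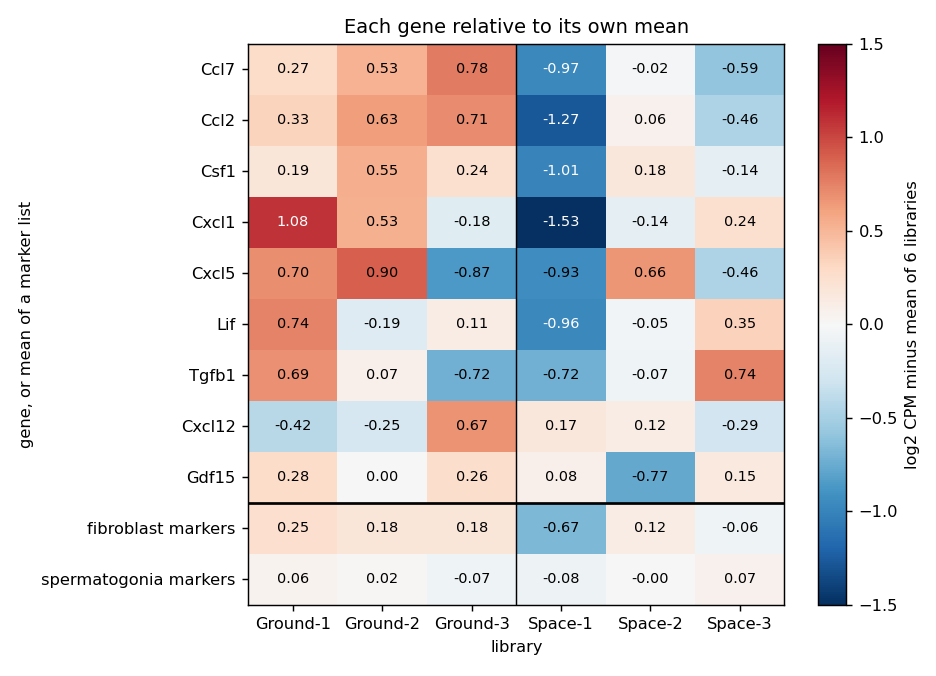
Log2 CPM of each gene minus its mean over the 6 libraries (colour and printed value) for 9 genes and, below the line, the mean of the fibroblast and the spermatogonia markers, with libraries along the x axis. Space-1 is the lowest library in the lines of Ccl7, Ccl2, Csf1, Cxcl1, Cxcl5, Lif and the fibroblast markers, while Tgfb1 is high in Ground-1 and Space-3.

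Over the 6 libraries, which are the only points and include the group difference, log2 CPM of Csf1 had a Pearson's r of 0.96 with the mean of the fibroblast markers. It was 0.93 for Ccl2, 0.87 for Cxcl1, 0.86 for Ccl7, 0.80 for Lif, 0.63 for Cxcl5 and 0.44 for Tgfb1, and -0.05 for Gdf15 and -0.17 for Cxcl12. Spearman's rho, which uses only the order of the libraries, was 0.83 for Csf1, 0.77 for each of Ccl2, Cxcl1, Ccl7 and Cxcl5, 0.49 for Lif, 0.37 for Gdf15, 0.20 for Tgfb1 and -0.43 for Cxcl12. The mean of the fibroblast markers in Space-1 lay at -0.67 relative to its mean over the 6 libraries. In the other libraries it lay between -0.06 and 0.25, so r leans on Space-1. No test was made of these correlations.

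Among 10850 other genes with at least 5 CPM, those most like Ccl7 over the 6 libraries were Fbln2 (r = 0.98), Anxa1 and Angptl2. For Ccl2 they were Anxa1, Col4a1 and Ahnak, with r from 0.979 to 0.996. Fbln2 encodes a matrix protein, Col4a1 a basement membrane collagen and Anxa1 a phospholipid-binding protein. The genes most like Csf1 were Eef1akmt2, Adamts17 and Ikzf4. Among its 100 closest of the 10850 genes were 8 of 18 eligible fibroblast markers. This number was 7 for Ccl2, 4 for Ccl7, 2 for each of Cxcl1 and Lif, and 1 for Gdf15. It was 0 for Tgfb1, Cxcl12 and Cxcl5. Tgfb1 was closest to Pear1, the matrix protease Mmp9 and Obsl1, at r of 0.999 each. Cxcl12 was closest to Sned1, Hp1bp3 and Zdhhc6, Cxcl1 to Rab23, Neu3 and the collagen receptor Ddr2, and Cxcl5 to Batf, Gm42064 and Ddah1. Lif was closest to Cers5, Ctsd and Cryzl1, and Gdf15 to Hexim1, Nudt16 and Shq1. With 6 points and 10850 candidates, each of the 9 tested genes had 3 such genes at an r of 0.96 or more, Gdf15 included.

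The related ligands were mostly scarce. Of 25 other chemokine ligands, 24 were in the table, 8 passed the filter and 9 were at 0 in every library. In edgeR 0 passed the adjusted p and 1, Ccl8, had an unadjusted p under 0.05, against 0.609% of all genes. The median log2 fold change of these ligands was -0.22. The highest in CPM were Cx3cl1, the membrane-bound chemokine fractalkine, at 0.05 (SE 0.23), and Ccl25, at -0.06 (SE 0.10). Of 21 other cytokines and growth factors, 13 were tested and 0 passed, also without adjustment, with a median of -0.17. The highest were Mif, at -0.04 (SE 0.14), and Spp1 (osteopontin), at -0.41 (SE 0.19). Tgfb3, a relative of Tgfb1, had the smallest unadjusted p of the list, 0.0617 in edgeR, at -0.55 (SE 0.25). All its Space libraries lay below all its Ground libraries, as in 1.98% of all genes tested.

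Among 21 receptors of the 10 ligands, 12 were tested, 0 passed the adjusted p and 0 the unadjusted p, with a median log2 fold change of -0.03. Il6st, the signalling chain for Il6 and Lif, had between 2667 and 3719 counts per library and a log2 fold change of 0.02 (SE 0.05). Lifr, the Lif-binding chain, had 1098 to 1330 counts and -0.02 (SE 0.11). Tgfbr1, the kinase subunit of the Tgfb1 receptor, had the smallest unadjusted p of the list, 0.378, with -0.09 (SE 0.10). The others were looked up after the values were seen. Il6ra had 514 to 662 counts and the Cxcl12 receptor Cxcr4 66 to 161. Csf1r, the receptor of Csf1, and Ccr2, that of Ccl2, were near absent, with at most 2 and 1 counts in any library, as was Gfral, the receptor of Gdf15, with at most 1.

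The intracellular pathways tied to these ligands held 0 genes past the adjusted p. In the NF-kB list 13 of 13 genes were tested, with 0 past either p and a median log2 fold change of -0.03. Chuk (an IkB kinase) and Rela (the p65 subunit) were both at -0.03 (SE 0.06), and the inhibitor Nfkbie, with the smallest unadjusted p of the list, at 0.33 (SE 0.24). In the JAK-STAT list 12 of 12 genes gave a median of -0.0080, with Stat3 at 0.06 (SE 0.06) and Jak1 at 0.01 (SE 0.06). In the integrated stress response list, which controls Gdf15 under stress, 11 of 11 gave a median of -0.03, with Atf4 at -0.03 (SE 0.06) and Ppp1r15a at -0.08 (SE 0.07). None of these lists held a gene at an unadjusted p under 0.05 in edgeR.

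In the list of TGF-beta activation, signalling and target genes 16 of 16 were tested and 0 passed the adjusted p in edgeR. At an unadjusted p under 0.05 there were 2, both lower in Space, against 0.450% of all genes lower at that p. The repressors Ski and Skil had log2 fold changes of 0.05 (SE 0.06) and -0.0019 (SE 0.08), and the sign of Skil turned under RLE scaling and total counts. Thbs1, which encodes thrombospondin 1, an activator of latent TGF-beta, had 455, 299 and 453 counts in Ground and 231, 296 and 312 in Space. In CPM its groups did not overlap, but by a small margin, with Space-2 at 15.8 and Ground-2 at 15.9 CPM. All Space libraries lay below all Ground libraries for 1.98% of all genes tested. The log2 fold change of Thbs1 was -0.53 (SE 0.19, unadjusted p = 0.0225, adjusted p = 0.9999 in edgeR). Ccn2, a matricellular target of TGF-beta, was named after its values were seen, with 38, 42 and 46 counts in Ground and 27, 24 and 30 in Space. Both were lower in Space while the level of Tgfb1 itself overlapped, and this difference between the genes was not tested.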

How the data were processed

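Poly(A) RNA of GS cells was sequenced in 6 libraries, 3 titled Space and 3 titled Ground. The values deposited by the authors were raw counts, in 1 table of all libraries. The submitters' processing notes name bcl2fastq 2.20, cutadapt 4.1, HISAT2 2.2.1, HTSeq 2.0.2 and the mm10 genome, and the study used the GENCODE M21 annotation. Labels and methods differ on the library kit, the sequencer and the read layout, and the strand setting of the counting was not given in the sources used here. Reads shared by close relatives such as the CC chemokines of chromosome 11 could be lost or split between them.

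Counts were tested on the whole table with edgeR 4.0.16 (R 4.3.3): filterByExpr by group left 15104 genes, libraries were scaled by TMM, and a 2-sided quasi-likelihood F test was adjusted by Benjamini-Hochberg over all of them, with a threshold of 0.05. The standard error is the log2 fold change over the square root of F. Log2 CPM used a prior count of 2. The common biological coefficient of variation was 13.9%. Beside Ccl7, 5 of the genes had at least 10 counts in every library and were also compared, relative to the summed CPM of 24 fibroblast markers, by an exact permutation test over the 20 assignments of libraries to groups. The fits of edgeR, limma-voom and DESeq2 were tested on simulated counts. These were drawn with a lower biological coefficient of variation than in these data, so they do not measure the power reached here. Floors cover counting error only.

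The genes, the lists and the tests were chosen with earlier results of these data known. Named were the 10 genes, in each pathway list the 2 with the highest CPM and the 1 with the smallest p (or any past the threshold), in each marker list the 3 with the highest CPM, and for likeness the 3 genes with the highest r. Where a symbol had more than 1 entry, the one with most counts was used. Alternatives were RLE scaling, total counts, no filter, at least 10 counts in every library, DESeq2 1.42.0, limma-voom (limma 3.58.1), a replicate block, and leaving out each library.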

Additional observations from a re-analysis of the deposited data

How the results depend on the processing

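Under 13 alternatives each, 0 genes, 0 members of the set and 0 pathway genes passed the adjusted p, and the unadjusted count lay between 45 (DESeq2) and 192 (no filter) genes, 1 to 2 members and 0 to 5 pathway genes. Leaving out each library gave 0 to 0 of each as well. Of 361 refitted log2 fold changes of named genes 30 changed sign, and of the 348 that had a test (Ccl7 had none) 0 passed the threshold. Ccl7 ranged from -1.36 to -0.85, Ccl2 from -1.41 to -0.76, Csf1 from -0.85 to -0.31 and Ccl8 from -1.48 to -0.77, with the value nearest to 0 of the first 3 reached without Space-1. Under total counts, which moved the median of all genes to 0.03, Tgfb1 was at 0.0168, Lifr at 0.0193, Chuk at 0.0041, Rela at 0.0060, Skil at 0.0327 and Atf4 at 0.0031, and Skil was at 0.0013 under RLE scaling and 0.0014 in DESeq2. Without 1 library, log2 fold changes ranged from -0.28 to 0.36 for Cxcl12, -0.49 to 0.39 for Tgfb1, -0.17 to 0.24 for Cx3cl1, -0.18 to 0.0641 for Mif, -0.0045 to 0.0481 for Il6st, -0.0950 to 0.0621 for Lifr, -0.0517 to 0.0039 for Chuk, -0.0256 to 0.0626 for Jak1, -0.0591 to 0.0510 for Skil and -0.0655 to 0.0045 for Atf4. Relative to the fibroblast markers they ranged from -0.0504 to 0.51 for Cxcl12 and -0.24 to 0.47 for Tgfb1, and 0 genes passed an exact test that cannot go below 0.1. The cause of these turns was not tested.

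The numbers in the titles did not pair the libraries: deviations from the group means over the 1000 most variable genes correlated at -0.48, 0.28 and -0.60 for numbers 1 to 3, and 1 of 3 Ground libraries correlated best with its own number. The highest correlations were between Ground-1 and Space-3, at 0.63, and Ground-3 and Space-1, at 0.60. No label ties these libraries, and no block was fitted on pairs found in the values. With the replicate block 0 genes passed, 63 had an unadjusted p under 0.05, and Ccl2 was at -1.13 and Csf1 at -0.65. Depth limits Il6, Gdf15 and Cxcl5 most, with under 20 counts in most libraries.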
